A study of Gallus gallus with 8 samples.

Results

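The fusing pygostyle intervertebral disc (IVD) of the chicken was described on its own, from the 4 of 8 RNAseq libraries whose labels name degrading pygostyle discs. The other 4 libraries, from free caudal IVDs, were not used here, and no value below is a comparison with them. The birds were 10 weeks old. The labels name the breed as white leghorn, the series' design text gives an age range in place of a single age, and the study's methods name Tetra birds, 8 in number. The sources used here do not say which bird gave which disc, nor do they give the sex of the birds. According to the study, the discs collected from a pygostyle were at combined stages of fusion, so each library averages over stages. RNA from dissected discs was polyA-selected, and replicate numbers 1 to 4 are those of the sample titles.

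The pygostyle is the bone at the tip of the bird tail, and it forms after hatching as the last caudal vertebrae fuse and the discs between them are remodelled. In endochondral bone formation, chondrocytes that make a matrix of type II collagen and aggrecan enlarge and switch to type X collagen, after which vessels, osteoclasts and osteoblasts enter and replace cartilage with bone. Bird red blood cells and thrombocytes keep their nucleus, and heterophils, the bird counterpart of neutrophils, store avian beta-defensins in their granules.

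The 4 libraries summed to 13860448, 5682402, 11522223 and 18434459 counts on genes (replicates 1 to 4), so that replicate 2 was the shallowest. Of 24154 genes in the table, 20104 had a count in at least 1 of these libraries and 16110 had one in all 4. Levels are given as TPM, counts divided by gene length and scaled to the same total in each library, which allows genes to be compared with each other. Variation and most counts of genes highest or lowest in a library use CPM, counts scaled to a common total with TMM factors. These ran from 0.889 in replicate 3 to 1.10 in replicate 2. Values of single genes by library are given in TPM or CPM, as named. In TPM the median gene deviated by 0.14, 0.03, 0.05 and -0.20 (log2) in replicates 1 to 4, so small differences among libraries depend on the unit. The labelled tissue was checked against marker lists. Of 38 cartilage genes found, 36 had a mean of at least 5 CPM. Markers of the notochord and nucleus pulposus were mostly near 0: only *CD24* (mean 70.8 CPM) and *FOXA2* (mean 26.55 CPM) of 7 genes found reached that mean, *KRT18* had no count, and *KRT8*, *SHH* and *NOTO* had means of 0.253, 0.0864 and 0.0197 TPM. *KRT19* had 6.79 CPM in replicate 4 and no more than 0.137 CPM elsewhere. No gene matched the name *TBXT*, also on this list, so that marker was not checked. Since these are bulk libraries, fewer cells of a type and less RNA per cell cannot be told apart in any value below.

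A small number of genes made up much of the RNA. The 128 genes with the highest mean held 50% of the TPM, the top 10 held 21.5% and the top 50 held 36.8%. Among the top 50 were 12 genes of the cartilage lists, 9 ribosomal protein genes, 7 red cell and heterophil genes and 4 of fibrous connective tissue, while 15 were on no list. The highest mean was that of *HBA1*, which encodes the adult alpha-A globin of red blood cells (chromosome 14 of GRCg6a, 12510395 to 12511200), with 33928, 65466, 14289 and 61041 TPM in replicates 1 to 4. It was the leading gene in replicates 1, 2 and 4, and only the fifth in replicate 3. There the lead was held by *COL2A1*, the type II collagen chain that is the main collagen of cartilage (chromosome 33, 7292548 to 7311106), which had 18727, 13903, 48937 and 20721 TPM. Between these, *HBBA*, the adult beta-globin, averaged 40271 ± 22139 TPM (SD, n = 4), and *SPARC*, a collagen-binding matrix protein abundant in bone and connective tissue, averaged 26513 ± 6501 TPM (SD, n = 4).

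**Figure D1:**
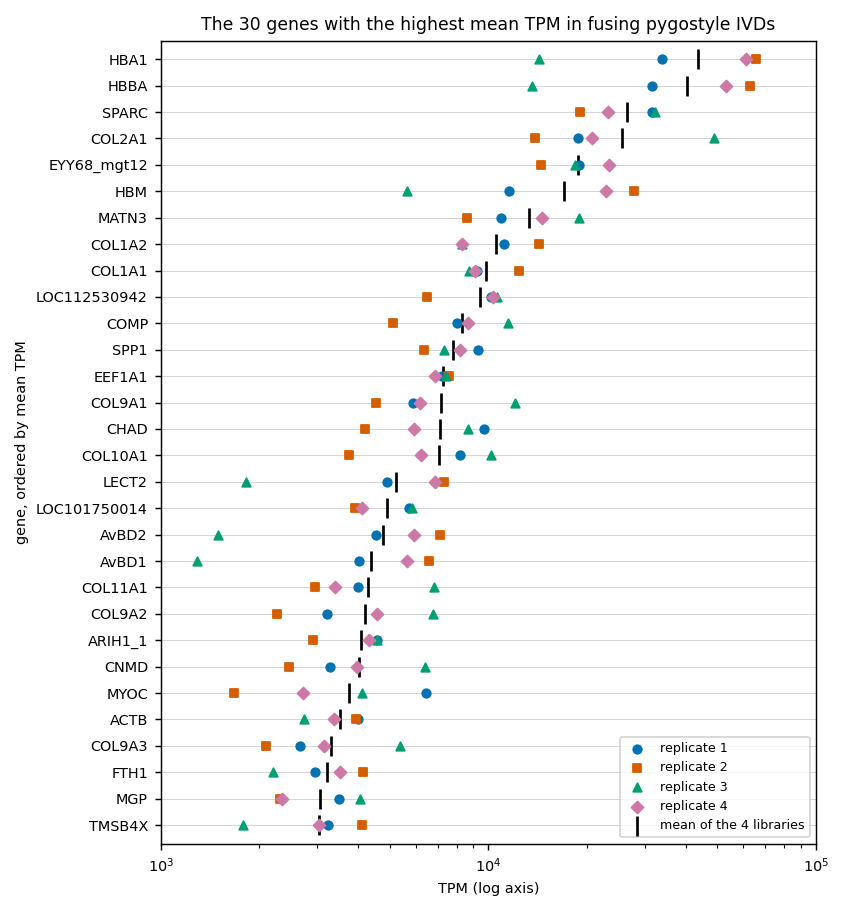
TPM (x axis, logarithmic) of the 30 genes with the highest mean TPM (y axis, ordered by mean) in each of the 4 fusing pygostyle libraries, with the mean as a black bar. Replicate 3 lies lowest for the globin genes, *LECT2*, *AvBD1* and *AvBD2*, and highest for *COL2A1*, *COL9A1* and *COL9A2*.

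Of the 30 leading genes, 14 were highest in replicate 3 and 11 in replicate 2, while 18 were lowest in replicate 2 and 11 in replicate 3. In TPM, of all 11016 genes that averaged 5 CPM or more, 3379 were highest in replicate 3 and 2976 in replicate 2. Of the same genes, 2253 were lowest in replicate 2 and 2376 in replicate 3. The fifth gene by mean TPM, *EYY68_mgt12* (18753 ± 3644 TPM, SD, n = 4), is a mitochondrial gene of only 75 bases, and division by this length puts it high although it had 2986 to 16445 counts. The deposited table lists 24 genes of the mitochondrial genome, which encode tRNA and rRNA. No name of a protein gene of that genome matched a gene in it, so the TPM shares given here leave out their RNA. *LOC112530942* (9402 TPM), *LOC101750014* (4890 TPM) and *ARIH1_1* (4093 TPM) lie together on chromosome 33 and overlap, so their counts are uncertain, and *LOC112533599* (2755 TPM) is annotated as rRNA by RefSeq. The translation factor gene *EEF1A1*, at 7266 ± 309.5 TPM (SD, n = 4), differed least, relative to its mean, of the 30 leading genes.

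Cartilage genes held 10.1 ± 4.22% of the TPM (SD, n = 4), with 9.25%, 6.02%, 16.04% and 9.20% in replicates 1 to 4. The highest value, in replicate 3, was 2.66 times the lowest, in replicate 2. The collagens of the cartilage fibril made up 4.53% on average. After *COL2A1* came *COL9A1* (7167 ± 3346 TPM, SD, n = 4), a chain of the type IX collagen on the fibril surface, and *COL11A1* (4292 TPM), a chain of the type XI collagen that nucleates the fibril. Within each library, *COL9A1* stood at 0.314, 0.327, 0.247 and 0.298 of the TPM of *COL2A1*. This ratio moved by 1.33-fold, far less than *COL2A1* itself. All 6 cartilage collagen genes were highest in replicate 3 and lowest in replicate 2, against 30.5% and 27.9% of all genes.

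Matrix proteins other than collagen made up a similar share, 4.63 ± 1.53% (SD, n = 4). *MATN3*, matrilin 3, an adaptor protein of the cartilage matrix, led them with 10935, 8573, 18946 and 14581 TPM. It was followed by *COMP* (8314 ± 2614 TPM, SD, n = 4), a pentameric protein that binds collagen, and *CHAD* (7121 ± 2518 TPM), chondroadherin, a leucine-rich protein that binds chondrocytes. *CNMD*, which encodes the vessel-inhibiting chondromodulin, had 3288, 2457, 6426 and 3982 TPM. *ACAN*, the core protein of aggrecan, had 3285, 1620, 4078 and 1997 TPM, and its ratio to *COL2A1* fell between 0.0833 in replicate 3 and 0.175 in replicate 1. Not every gene of this group followed *COL2A1*: *CHAD* was highest in replicate 1 and *CHADL* was lowest in replicate 4. Of the chondrocyte transcription factors, the *COL2A1* activator *SOX9* had 189, 104, 351 and 144 TPM. *NKX3-2*, a repressor that keeps chondrocytes from maturing, had 337, 210.2, 613 and 348 TPM. Both were highest in replicate 3 and lowest in replicate 2.

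Genes of hypertrophic chondrocytes held 0.904 ± 0.313% of the TPM (SD, n = 4). Most of this was *COL10A1*, the type X collagen made by enlarged chondrocytes, with 8186, 3758, 10191 and 6221 TPM. It ranked 16th among all genes. Its ratio to *COL2A1* ran from 0.208 in replicate 3 to 0.437 in replicate 1, so the libraries with the most *COL2A1* and with the most *COL10A1* per *COL2A1* were not the same. This is not particular to *COL10A1*: the ratios of *COL9A1*, *COL11A1* and *ACAN* to *COL2A1* were lowest in replicate 3 too. *MMP13*, the collagenase of late hypertrophic chondrocytes and osteoblasts, had 1990, 1111, 1259 and 1094 TPM and was highest in replicate 1. *IHH*, the hedgehog ligand of prehypertrophic chondrocytes, had 282, 120.3, 425 and 194 TPM, highest in replicate 3 and lowest in replicate 2. The ratio of *MMP13* to *COL10A1* was 0.243, 0.296, 0.124 and 0.176.

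Fibrous connective tissue genes held 5.33 ± 0.672% of the TPM (SD, n = 4), with 21 of 21 genes at a mean of at least 5 CPM. *SPARC*, given above, is on this list and held more of the share than any other member. Since *SPARC* and the type I collagens are also abundant in bone, this share is not one of fibrous tissue alone. The type I collagen chains *COL1A1* and *COL1A2*, which form the main fibril of bone, tendon and annulus, averaged 9858 ± 1680 and 10513 ± 2861 TPM (SD, n = 4). *COL1A1* had 9216, 12360, 8745 and 9111 TPM, so that on the TPM scale replicate 2 was highest and the other 3 lay close together. The ratio of *COL2A1* to *COL1A1*, cartilage collagen over fibrous and bone collagen, was 2.03, 1.13, 5.60 and 2.27. It exceeded 1 in every library and spanned 4.98-fold. The leucine-rich proteoglycan genes differed among themselves. *DCN*, decorin, had 3987, 2234, 3292 and 1871 TPM, whereas *LUM*, lumican, had 394, 340.4, 79.9 and 156 TPM and *ASPN*, asporin, which overlaps *CENPP*, 186, 140.3, 18.3 and 115 TPM. The last 2 were lowest in replicate 3, and their SD of log2 CPM was 1.01 and 1.51.

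Tendon and annulus genes were low apart from *CLEC3B*, which encodes tetranectin, at 452, 446, 905 and 417 TPM. *TNMD*, tenomodulin, averaged 35.9 TPM, *MKX*, a transcription factor of annulus and tendon, 9.76 TPM, and *SCX*, scleraxis, 2.74 TPM.

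The summed share of bone genes was smaller than that of cartilage and differed less among libraries, at 2.15 ± 0.188% (SD, n = 4) with 2.35%, 1.90%, 2.14% and 2.22% in replicates 1 to 4. Its highest and lowest values differed by 1.24-fold. The bone lists leave out *SPARC* and the type I collagen genes, which were counted with fibrous connective tissue. Gene by gene, 19 of 31 bone genes were lowest in replicate 2, against 27.9% of all genes. Osteoblast and osteocyte genes held 1.58 ± 0.148% and were led by *SPP1*, osteopontin, a mineral-binding protein of bone, with 9291, 6379, 7327 and 8217 TPM. It weighs heavily in this share. The study lists *SPP1* for activation of macrophages, T cells and neutrophils as well as for bone matrix, and which cells gave its RNA was not tested. After *SPP1* came *IBSP*, bone sialoprotein, with 2021, 1638, 1899 and 2246 TPM. *BGLAP*, which encodes osteocalcin, the vitamin K dependent protein of mature osteoblasts (chromosome 23, 6070881 to 6072078), differed more. It had 459, 2723, 304 and 2013 TPM, so that replicates 2 and 4 lay well above replicates 1 and 3. Relative to *IBSP* it ranged from 0.160 in replicate 3 to 1.66 in replicate 2, a 10.4-fold span, and it was the one osteoblast gene among the 200 genes that varied most.

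Markers of osteocytes, the cells embedded in bone matrix, were found in every library. *PHEX*, a peptidase of osteocytes, had 351, 336, 316 and 297 CPM, an SD of log2 CPM of only 0.10. *DMP1*, a mineralization protein, averaged 325 TPM and *MEPE* 45.8 TPM. *SOST*, which encodes the Wnt inhibitor sclerostin and overlaps *DUSP3*, averaged 6.45 TPM. *OMD*, osteomodulin, which overlaps *CENPP*, ran from 42.2 CPM in replicate 4 to 145 CPM in replicate 2.

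Osteoclast genes held 0.568 ± 0.0577% of the TPM (SD, n = 4). *CTSK*, cathepsin K, the collagenase that osteoclasts secrete, had 2810, 2432, 2739 and 2833 TPM. *ACP5*, tartrate-resistant acid phosphatase, had 614, 604, 566 and 634 CPM and an SD of log2 CPM of 0.07, against a median of 0.26 over all genes. *MMP9*, the gelatinase of osteoclasts, had 1517, 995, 2059 and 1567 TPM. *CALCR*, the calcitonin receptor, differed more than *ACP5*, at 4.38, 2.24, 14.3 and 4.04 CPM with replicate 3 highest, from 14 to 146 counts. The steadiness of *ACP5* was not shared by the whole list. Over 12 osteoclast genes the median SD of log2 CPM was 0.27, no lower than that of all genes. Of these genes, 7 were lowest in replicate 2, against 27.9% of all genes.

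**Figure D2:**
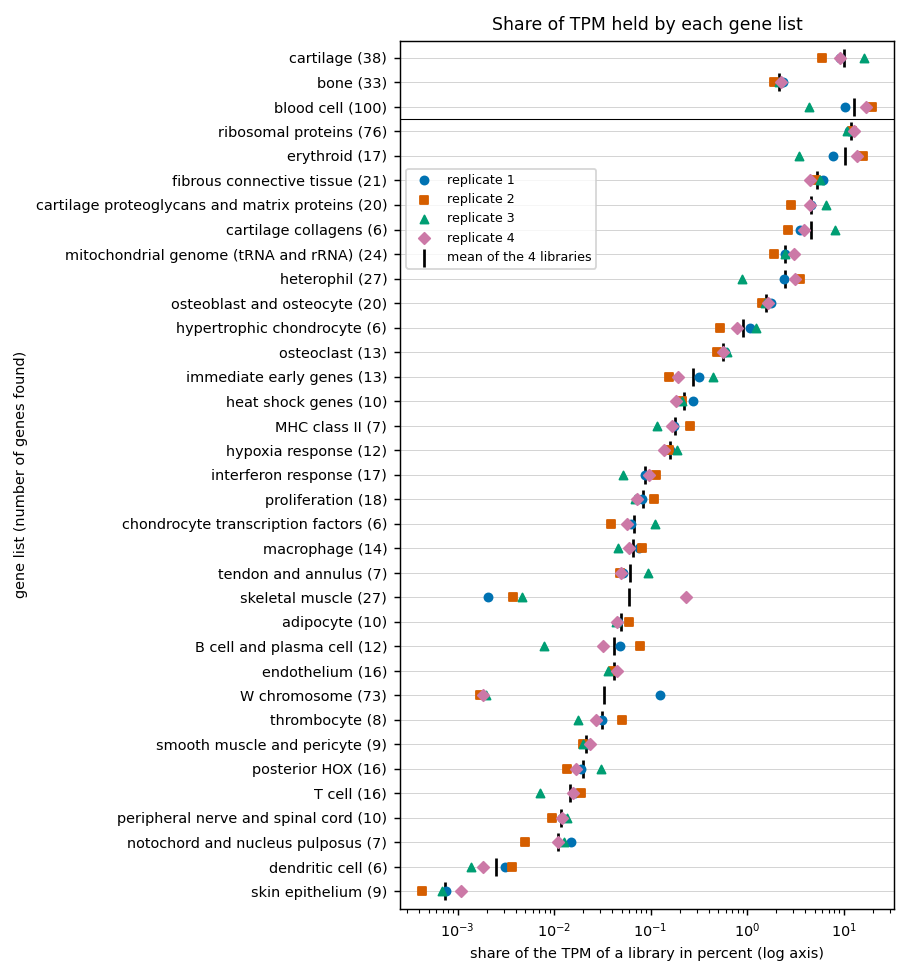
Share of the TPM of each library (x axis, in percent, logarithmic) held by the genes of each list (y axis, with the number of genes found), with the mean of the 4 libraries as a black bar. The sums for cartilage, bone and blood cells stand above the line: bone stays between 1.90% and 2.35%, while cartilage runs from 6.02% to 16.04% and blood cells from 4.41% to 19.6%.

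Blood cell genes held 12.9 ± 6.84% of the TPM (SD, n = 4), with 10.4%, 19.6%, 4.41% and 17.1% in replicates 1 to 4. This share exceeded that of cartilage in replicates 1, 2 and 4 and was below it in replicate 3. As shares of counts, with no division by length, the order turned in replicates 1, 2 and 4: blood cell genes held 3.03%, 6.16%, 1.21% and 5.51%, and cartilage genes 16.1%, 11.6%, 26.1% and 18.03%. Most of it was red cell RNA: erythroid genes held 7.81%, 15.9%, 3.43% and 13.8%. The adult globins *HBA1* and *HBBA* kept to each other within narrow limits, with a ratio of 1.08 ± 0.0504 (SD, n = 4), although each moved by more than 4-fold among libraries. *HBM*, the alpha-D globin named *HBAD* in RefSeq, stood at 0.384 ± 0.0355 of *HBA1*. *SLC4A1*, the anion exchanger of the red cell membrane, had 332, 703, 199.8 and 430.5 TPM, in the same order of libraries as *HBA1*. *HBE1*, a further beta-type globin, was low, at 3.69, 24.3, 5.08 and 17.4 CPM. *TFRC*, the transferrin receptor, departed from the other erythroid genes and was highest in replicate 3, at 295 TPM against 134 to 224 TPM.

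Heterophil genes held 2.43%, 3.51%, 0.892% and 3.09% of the TPM. The leading gene was *LECT2*, which RefSeq also names *MIM1*, a protein of heterophil granules and a chemotactic factor, with 4912, 7311, 1818 and 6862 TPM. The avian beta-defensin genes *AvBD2* and *AvBD1*, which encode antimicrobial peptides of heterophil granules, averaged 4762 ± 2415 and 4383 ± 2318 TPM (SD, n = 4). Their ratio to each other was 0.907 ± 0.0404 (SD, n = 4). *S100A9*, a calcium-binding protein of granulocytes, had 2881, 2989, 892 and 3082 TPM, and *MPO*, myeloperoxidase, had 595, 617, 70.4 and 695 CPM. For each of these genes replicate 3 was lowest by more than 2-fold. All 24 heterophil genes that averaged 5 CPM or more were lowest in replicate 3, against 27.2% of all genes. Of them, 11 were among the 200 genes that varied most, which were drawn from 11016 genes. *HBA1* stood at 8.43, 9.94, 11.1 and 10.8 times the TPM of *AvBD1*. With TMM factors, 16 of 24 heterophil genes were highest in replicate 4 and 9 of 13 erythroid genes in replicate 2. This difference between the lists depended on the scaling. In TPM, 14 heterophil genes were highest in replicate 2 and 8 in replicate 4, and 11 erythroid genes were highest in replicate 2. Library totals gave 11 heterophil genes in replicate 2 and 12 in replicate 4. The summed TPM shares of both lists were highest in replicate 2. By contrast, *CSF3R*, the receptor for the granulocyte growth factor, moved less than the granule genes, and the ratio of *AvBD1* to *CSF3R* ran from 28.2 in replicate 3 to 65.2 in replicate 2.

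Other blood cell lists were small. Macrophage genes held 0.0652 ± 0.0162% of the TPM (SD, n = 4), led by *LGMN*, a lysosomal protease, and *CSF1R*, the receptor that macrophages depend on, with 142, 167, 99.5 and 100.5 TPM. Of 13 macrophage genes that averaged 5 CPM or more, 11 were lowest in replicate 3 and 8 highest in replicate 2, against 27.2% and 26.2% of all genes. *CD163*, a scavenger receptor of macrophages, did not follow *CSF1R*: it had 47.5, 4.95, 12.98 and 41.1 CPM. B cell and plasma cell genes showed the widest span of the white cell lists, 9.99-fold, from 0.00778% in replicate 3 to 0.0777% in replicate 2. Of the 6 with a mean of at least 5 CPM, 4 were lowest in replicate 3, against 27.2% of all genes. Among the 4 were *IGLL1*, which RefSeq lists with the synonym IgL, at 202, 380.4, 20.6 and 179 CPM, and *JCHAIN*, the joining chain of secreted antibodies, at 61.1, 90.7, 10.2 and 33.5 CPM. *IGLL1* had 2.41 to 6.35 times the TPM of *JCHAIN*, so it weighs heavily in the summed share. The other 2 of the 6 were lowest in replicate 2, and 1 of the 6 was highest in replicate 3. All 8 thrombocyte genes were highest in replicate 2, against 26.2% of all genes. There *ITGA2B*, the integrin chain of thrombocytes, had 41.1 TPM against 9.97 to 20.8 TPM elsewhere. T cell genes held 0.0146%, and *CD3D*, a chain of the T cell receptor complex, had 35.8, 39.9, 8.10 and 48.9 CPM.

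The summed share of endothelial genes differed little among libraries, although the median SD of log2 CPM of 14 of them, 0.28, was no lower than the 0.26 of all genes. They held 0.0438%, 0.0412%, 0.0363% and 0.0443% of the TPM, a 1.22-fold span, against the 4.45-fold span of blood cell genes in the same libraries. The vessel gene *PLVAP*, a protein of endothelial diaphragms, led them with 187 TPM in replicate 1 and 164 to 229 TPM over the 4 libraries. *PLVAP* weighs heavily in the summed share. *CDH5*, the cadherin of endothelial junctions, had an SD of log2 CPM of 0.08, and *PECAM1*, another junction protein of vessels, 0.17, both below the median of the list. Of the 14 endothelial genes, 0 were highest and 7 were lowest in replicate 3, against 30.5% and 27.2% of all genes. Smooth muscle and pericyte genes spanned 1.18-fold and were led by *RGS5*, a pericyte gene, at 98.0 TPM. Fat cell genes held 0.0488%, with *FABP4*, the fatty acid carrier of adipocytes and macrophages, at 164, 378, 101.9 and 262 TPM and *PLIN1*, the coat protein of lipid droplets, at 18.2, 31.1, 2.64 and 15.9 CPM. Of skin and nerve markers, 2 of 9 and 2 of 10 genes found had a mean of at least 5 CPM, and *KRT5*, a keratin of basal epidermis, averaged 0.0359 TPM.

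Across the 11016 genes that averaged 5 CPM or more, no library held most of the highest values: 15.4% were highest in replicate 1, 26.2% in replicate 2, 30.5% in replicate 3 and 27.9% in replicate 4, while 19.6%, 27.9%, 27.2% and 25.3% were lowest there. These shares are the background for the counts of list members with TMM factors, above and below. In the cartilage lists, 31 of 36 genes were highest in replicate 3 and 30 were lowest in replicate 2. Blood cell genes ran the other way, with 63 of 71 lowest in replicate 3 and 39 highest in replicate 2. Scaling by library totals, by DESeq2's size factors or by TPM in place of TMM gave 29 to 32 cartilage genes highest in replicate 3 and 62 to 65 blood cell genes lowest there. Under library totals the median deviation of all genes was 0.07, 0.13, -0.15 and -0.03 (log2) in replicates 1 to 4, and under TPM it was 0.14, 0.03, 0.05 and -0.20, so the counts by library are relative to TMM scaling.

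**Figure D3:**
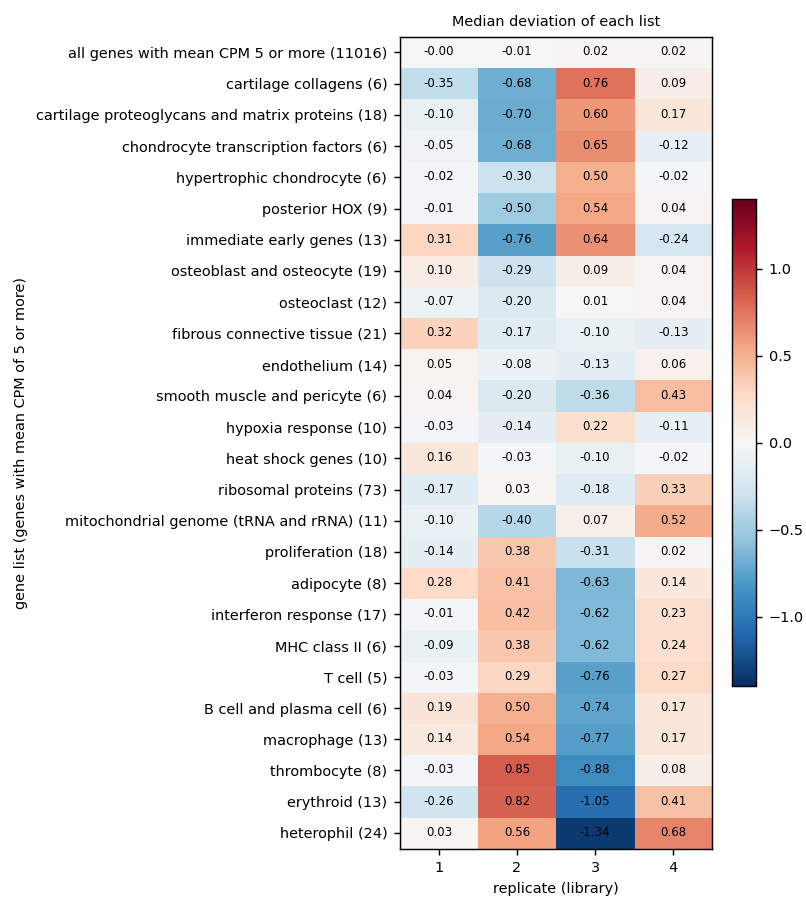
Median over the genes of each list (rows, with the number of genes at a mean of 5 CPM or more) of log2 CPM less its mean over the 4 libraries (columns), on a colour scale from blue (lower) to red (higher). Replicate 3 is red for the cartilage lists and blue for the blood cell lists, down to -1.34 for heterophil genes, and replicate 2 is the reverse.

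Several lists that are not tied to 1 cell type also differed by library. Immediate early genes, which cells switch on within minutes of a stimulus, were highest in replicate 3 for 9 of 13 and lowest in replicate 2 for 12 of 13. *FOS*, a subunit of the AP-1 transcription factor, had 813, 390, 1315 and 539 TPM. *EGR1*, a zinc finger transcription factor, had 395, 142, 667 and 213 CPM. Posterior HOX genes, which encode the position along the body axis, were also highest in replicate 3 for 8 of 9, led by *HOXC13* at 52.7, 31.7, 113 and 56.4 TPM.

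Interferon response genes were lowest in replicate 3 for 16 of 17, with *IFI6*, an interferon-induced membrane protein, at 289.9, 434, 131 and 403 TPM. MHC class II genes were lowest there for 5 of 6, and *CD74*, the invariant chain of MHC class II, had 1367, 1804, 850.2 and 1274 TPM. Proliferation genes were highest in replicate 2 for 15 of 18, or for 17 or 18 under the other scalings. There *CDK1*, the kinase that drives mitosis, had 131 TPM against 69.8 to 85.2 TPM elsewhere. The depth of replicate 2, the lowest, moves with these counts, and its part in them was not tested. Ribosomal protein genes were highest in replicate 4 for 72 of 73 with TMM factors, but for only 43 in TPM and 62 with library totals. Their share of the TPM was steady, at 11.2%, 12.3%, 10.7% and 12.8%.

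Pairs of libraries differed in the number of genes that were over 1 apart on the log2 scale. Replicates 2 and 3 were farthest apart, with 1394 genes (12.7%), and replicates 1 and 4 had the fewest such genes, 377 (3.42%). By the median absolute log2 difference, replicates 1 and 2 were nearest, at 0.21, and replicates 2 and 3 again farthest, at 0.33. No pair was close enough to be a second copy of 1 library. The median SD of log2 CPM over the 11016 genes was 0.26, with quartiles of 0.17 and 0.39, and 176 genes (1.60%) had an SD over 1. Counting error gave a median of 10.4% of the squared coefficient of variation over all genes and 0.774% over the 200 genes that varied most. The filter lay between *HHAT*, just inside at a mean of 5.001 CPM, and *SHMT1*, just outside at 4.995 CPM.

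**Figure D4:**
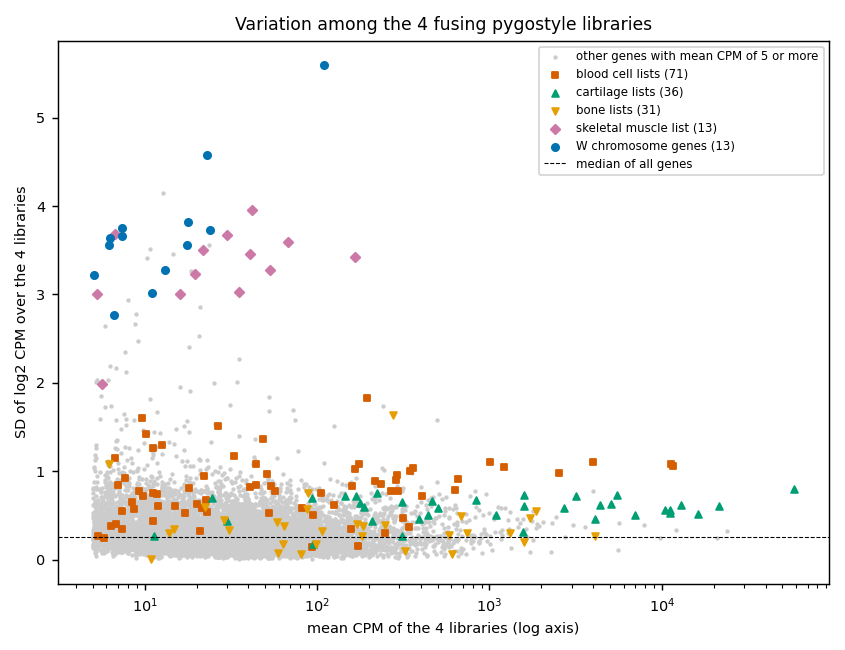
SD of log2 CPM over the 4 libraries (y axis) against mean CPM (x axis, logarithmic) for the 11016 genes with a mean of 5 CPM or more, with list members in colour and the median of all genes dashed. W chromosome and skeletal muscle genes lie at the top, blood cell genes have a median SD of 0.78, and bone genes a median of 0.34, with *BGLAP* at 1.64.

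Of the 200 genes that varied most, 59 were on a list and 141 on none. They included 22 of 71 blood cell genes and 5 of 21 genes of fibrous connective tissue, where the 200 were drawn from 11016 genes. None of the 36 cartilage genes was among them, which for so small a list is near the share of all genes. Cartilage genes were not steady: their median SD of log2 CPM was 0.60, against 0.26 for all genes. The library farthest from the others was replicate 3, on the low side, for 79 of the 200 (39.5%), against 15.3% of all genes. It was replicate 4, on the high side, for 47 (23.5%, against 15.4%) and replicate 1, on the high side, for 25 (12.5%, against 5.76%). The counts for replicates 1 and 4, here and in the top 50, include 13 W chromosome and 13 skeletal muscle genes. Nearly all of these passed the 5 CPM filter only through that library, so the excess over all genes is partly fixed by the filter. Among the top 50, 29 stood out high in replicate 4 and 14 high in replicate 1, and without replicate 4 only 19 of these 50 genes were again among the top 50. Part of this fall is fixed by the filter, since muscle genes that averaged 5 CPM only through replicate 4 leave the ranking without it. Some of the genes that varied most share a chromosome or a list.

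The first group lay on the W chromosome, which in birds is carried by females. Of 73 W genes, 20 had no count and 13 averaged 5 CPM or more. Those 13 passed through their level in replicate 1, which fixes that they were highest there. *HINTW*, a W-linked member of the histidine triad family (chromosome W, 1839400 to 1896965), had 6392, 0, 1 and 0 counts and the largest SD of all genes, 5.59. *CHDB1* had 29.5 CPM in replicate 1 and no count in the other 3 libraries, and *SPIN1W* and *SMAD2W* had 29.6 and 24.7 CPM there. W genes held 0.126% of the TPM in replicate 1 and 0.00171% to 0.00197% in the others. *LOC112530494* overlaps *HINTW*, and reads of the pair cannot be told apart without strand. *LOC100859072*, a long noncoding RNA on the Z chromosome, had 748 counts in replicate 1 and none elsewhere. Over 508 genes of the Z chromosome, of which males carry a second copy, the median deviation was -0.32 (log2) in replicate 1 and 0.06 to 0.17 in the others.

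The second group encoded proteins of skeletal muscle. Of 27 muscle genes found, 13 averaged 5 CPM or more, and all but *ACTA1* did so only through replicate 4, which fixes that they were highest there. The whole list held 0.231% of the TPM there against 0.00205% to 0.00468% elsewhere. *ACTA1*, the actin of skeletal muscle, had 3.42, 5.59, 10.7 and 644 CPM. *MYH1C*, a fast myosin heavy chain, had 0.410, 0.479, 0.781 and 167 CPM, and *MYH1A* had 481 counts in replicate 4 and none in the others. *TNNC2* and *TNNT3*, the calcium-binding and tropomyosin-binding subunits of fast troponin, had 116.5 and 208 CPM in replicate 4 and no more than 1.60 and 2.55 CPM elsewhere. Genes off the list did likewise, among them *DES*, the intermediate filament of muscle, with 74.9 CPM in replicate 4 and *EEF1A2*, a translation factor of muscle and nerve, with 71.8 CPM.

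**Figure D5:**
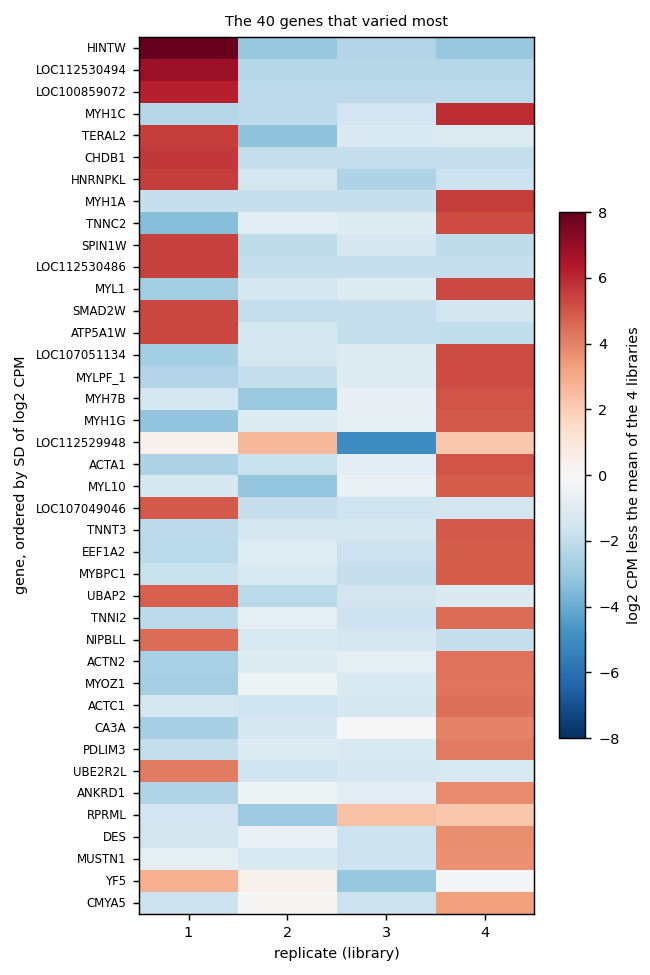
Log2 CPM less the mean of the 4 libraries (colour, blue lower and red higher) for the 40 genes with the largest SD of log2 CPM (rows, ordered by SD) in replicates 1 to 4 (columns). Blocks of red show W chromosome genes in replicate 1 and muscle genes in replicate 4, and *LOC112529948* and *YF5* are lowest in replicate 3.

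Genes set apart on the low side in replicate 3 were the most numerous of the 200. Besides the blood cell genes given above, it held some genes of the matrix, although of the 21 fibrous connective tissue genes 7 were lowest and 8 were highest in replicate 3. *TNN*, tenascin W, a matrix protein found at sites of bone formation, had 60.9, 34.0, 1.86 and 45.0 CPM, from 19 counts in replicate 3. *ASPN* had 185, 149, 19.6 and 146.5 CPM, and *LUM* 367, 340.1, 80.5 and 186 CPM. *ALOX15B*, a lipoxygenase, had 43.9, 31.6, 3.42 and 45.4 CPM, and *G0S2*, an inhibitor of fat breakdown that was on the heterophil list, had 7.79, 16.6, 1.27 and 13.2 CPM. *LOC112529948*, which overlaps *GIMAP8L1*, had 87, 188, 0 and 394 counts. Only 11 of the 200 stood out on the high side in replicate 3. *GJA3*, a gap junction protein gene that overlaps *GJB2*, had 7.59, 4.63, 43.2 and 5.16 CPM, and *GPNMB*, a glycoprotein of osteoclasts and macrophages, had 5.88, 2.40, 21.3 and 1.63 CPM. *GDF5*, a growth factor of joint formation, had 5.54, 2.55, 13.9 and 2.64 CPM and was highest in replicate 3 too.

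A further group lay on chromosome 16, which carries the chicken MHC and the rRNA genes. It gave 11 of the 200 genes (5.5%) but 0.527% of all genes that averaged 5 CPM or more. They did not share an order of libraries. *BTN3A3L1* had 6.22, 124, 22.8 and 56.5 CPM, and its overlapping neighbour *LOC425214* had 13.7, 217, 28.2 and 31.03 CPM, both lowest in replicate 1 and highest in replicate 2. *MHCIA9*, named as a class I MHC gene, had 44.4, 9.42, 3.03 and 13.1 CPM, and *MHCIY* had 26.3, 10.4, 1.17 and 5.05 CPM, both highest in replicate 1. *BLB2*, a class II beta chain gene, had 53.5, 194, 74.6 and 74.6 CPM. Many of these genes have near-identical copies and alleles that differ between birds, and reads that map to several genes were left out, so their counts are uncertain.

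At the other end, 3473 genes had a mean of at least 50 CPM, and the steadiest of them had an SD of log2 CPM of 0.02. *DGCR2* had 94.5, 92.3, 93.8 and 94.3 CPM, and *BZW1* had 139, 141, 143 and 139 CPM. *CDC42*, a small GTPase of the cytoskeleton, had 300.0, 290.4, 291 and 297 CPM. None of these was on a list.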

How the data were processed

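The authors deposited a table of counts per gene for all 8 libraries, with gene coordinates and lengths; per the labels and the study's methods, reads were aligned to GRCg6a with STAR and assigned to RefSeq genes with featureCounts, ignoring strand and dropping multimapping reads. Counts of overlapping genes are therefore uncertain. Only the 4 fusing pygostyle columns were used, and the authors' own comparison of fusing with free discs was not. TPM was computed over all genes. CPM used TMM factors (edgeR 4.0.16, R 4.3.3), and variation was the SD of log2 CPM with a prior count of 2, over genes averaging 5 CPM or more. The script was tested on simulated counts. Totals ran from 5682402 to 18434459 counts, and counting error is the only error that depth sets. With 1 group there was no test between groups and no p-value. Of 426 names in the gene lists, 380 matched a gene, 7 of them by a RefSeq synonym.

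The rule for named genes took the 30 highest by mean TPM, the 40 with the largest SD, the leading 2 or 3 members of each list, list members at 0 in all libraries where a defining marker is missing, and list members among the 200 that varied most. Other genes named were chosen after their values were seen, and the members and lists were chosen with earlier results of these data known. Alternatives were shares of counts without length, TPM without mitochondrial genes, other filters and prior counts, DESeq2 1.42.0 size factors, library totals, thinned counts and leaving out each replicate. Further ones, added after the data were seen, left out erythroid genes, left out W and muscle genes, and rescaled the counts by library.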

Additional observations from a re-analysis of the deposited data

Results flagged for a closer look

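Of 196 values tested, 160 of them named genes, 47 (24%) had 1 library set far from the other 3 relative to their whole range. Chance gives about 1 in 20 such groups, and the named genes were partly chosen for a large spread, so this share is a description only. Among gene lists, replicate 4 stood apart for skeletal muscle (0.231% of the TPM), replicate 1 for the W chromosome (0.126%), replicate 3 for tendon and annulus (0.0949%) and replicate 2 for adipocyte genes (0.0602%). The tendon and annulus share was mostly that of 1 gene, *CLEC3B*. Of the 4 tendon and annulus genes that averaged 5 CPM or more, 2 were highest in replicate 3. In replicate 2 the adipocyte share was likewise mostly that of 1 gene, *FABP4*. Of the 8 adipocyte genes past the same filter, 4 were highest in replicate 2, 2 in replicate 1 and 2 in replicate 3. Replicate 2 was also the lowest library for 2 of these 8 genes.

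Replicate 4 held 26 of the genes: *ACTA1* (644 CPM), *ACTC1* (31.03 CPM), *ACTN2* (60.5 CPM), *ANKRD1* (32.3 CPM), *CA3A* (76.4 CPM), *CMYA5* (26.8 CPM), *DES* (74.9 CPM), *EEF1A2* (71.8 CPM), *HSPB1* (63.1 CPM), *KRT19* (6.79 CPM), *LOC107051134* (92.4 CPM), *MUSTN1* (33.7 CPM) and *MYBPC1* (75.9 CPM). The others high there were *MYH1A* (26.99 CPM), *MYH1C* (167 CPM), *MYH1G* (157 CPM), *MYH7B* (84.5 CPM), *MYL1* (265 CPM), *MYL10* (40.1 CPM), *MYLPF_1* (42.4 CPM), *MYOZ1* (20.1 CPM), *PDLIM3* (33.7 CPM), *TNNC1* (19.1 CPM), *TNNC2* (116 CPM), *TNNI2* (135 CPM) and *TNNT3* (208 CPM). *HSPB1*, a small heat shock protein, and *KRT19*, a keratin, come from the heat shock and notochord lists.

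Replicate 1 held 15 of the genes. On the W or Z chromosome were *ATP5A1W* (69.3 CPM), *CHDB1* (29.5 CPM), *HINTW* (437 CPM), *HNRNPKL* (94.3 CPM), *LOC100859072* (51.1 CPM), *LOC107049046* (51.4 CPM), *LOC112530486* (25.1 CPM), *LOC112530494* (92.1 CPM), *NIPBLL* (42.5 CPM), *SMAD2W* (24.7 CPM), *SPIN1W* (29.6 CPM), *TERAL2* (70.5 CPM), *UBAP2* (20.2 CPM) and *UBE2R2L* (25.2 CPM). The remaining one was *YF5* (54.8 CPM), which lies on an unplaced sequence. Replicate 2 stood apart for *BLB2* (194 CPM) and replicate 3 for *CLEC3B* (878 CPM).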

How the results depend on the processing

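Across 21 results and 100 alternatives, 89 values stayed within the limit set for them, the spread between replicates for a share and 1.5 times for a count, and 11 moved. Leaving out 1 of 4 replicates cannot shift a mean share by as much as the SD of the 4. Those share values therefore stayed within the limit by construction, and the 89 include them. Shares of counts without division by length gave 17.97% for cartilage, 1.53% for bone and 3.98% for blood cells, and 307 genes then held 50% of the counts, since long matrix genes gain weight and short globin genes lose it. On that scale the cartilage share was above the blood cell share in every library. Ranking by mean CPM kept 32 of the 50 genes highest in TPM. Without the erythroid list, bone held 2.40% and blood cells 3.01%, a fall for blood cells that is fixed by taking out their own members. Of the 50 genes that varied most, 17 remained with a filter at a mean of 20 CPM and 25 without W chromosome and skeletal muscle genes. Both settings take genes themselves out of the ranking, and all of the 50 that were left in it stayed among the top 50. Ribosomal protein genes highest in replicate 4 fell from 72 to 43 in TPM. Leaving out each replicate in turn gave 8.16% to 11.5% for cartilage, 2.09% to 2.24% for bone, 10.6% to 15.7% for blood cells, 121 to 140 genes holding 50% of the TPM, 46 to 50 of the top 50 by TPM, 19 to 42 of the 50 that varied most (19 without replicate 4) and a median SD of 0.22 to 0.27. Leaving out replicate 1 or 4 takes out of the ranking the W or muscle genes that passed the 5 CPM filter only through that library. No paired analysis was possible because the 4 libraries form 1 group. With 4 libraries an SD is itself imprecise, and depth limits genes near 5 CPM most in replicate 2, where *HHAT* had 27 counts.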
